A study of Mus musculus with 10 samples.

Results

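The integrated stress response and the serine-folate pathway were followed through 10 genes, taken by symbol from a deposited table of 49585 rows: Atf4, Atf5, Ddit3, Asns, Trib3, Chac1, Fgf21, Psat1, Phgdh and Mthfd2. The symbols were listed by name and all 10 had a row. Of these, 9 passed the filter on low counts and were tested among 12906 genes, and Fgf21 did not pass. The 4FM3 group held 5 libraries of left ventricle from male ICR mice, an outbred stock, that had a myocardial infarction and received 4FM3. The PBS group held 5 libraries from mice of the same sex and stock that had an infarction and received phosphate-buffered saline. Hearts were taken 4 weeks after infarction, and a time label of 8 weeks is given without its starting point. The series title speaks of AAV, adeno-associated virus, as the vehicle for in vivo reprogramming, but no source used here says which genes or vector 4FM3 stands for. There were no libraries of uninjured hearts or of hearts given a vector without cargo, so a vector's own effect cannot be told apart from its cargo's. Whether each library is a separate animal is not stated, and the p-values therefore measure spread among these libraries, which may be technical.

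The integrated stress response slows protein synthesis when a kinase phosphorylates the translation factor eIF2, while the mRNA of the transcription factor ATF4 is then translated more. ATF4 raises transcription of genes for amino acid supply, for making serine from a glycolytic intermediate, and for mitochondrial folate enzymes. In heart and skeletal muscle this program is known to respond to faults of mitochondrial gene expression and respiration. Because ATF4 is controlled largely by translation, the level of Atf4 mRNA is no measure of ATF4 protein, which was not measured here.

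Total counts per library ran from 6634159 to 7319968 in 4FM3 and from 7099249 to 7711177 in PBS. Levels are CPM, counts scaled to a library of 1000000 with edgeR's TMM factor, and a count of 0 allows up to 0.371 to 0.481 CPM (3 counts, counting error only). PBS libraries 2 and 3 stood apart through lung transcripts: 8 lung markers summed to 974 and 933 CPM there, against 0.614 to 21.8 CPM in the other 8 libraries. All 8 cardiomyocyte markers rose in 4FM3, with sums of 95648 to 116358 CPM in 4FM3 and 64793 to 87243 CPM in PBS. All 8 fibroblast markers fell, with sums of 3924 to 6814 CPM in 4FM3 and 9804 to 12182 CPM in PBS, and 6 of 8 macrophage markers fell (678 to 803 CPM in 4FM3, 752 to 1667 CPM in PBS). Of 8 endothelial markers 5 rose. Mitochondrial transcripts took 7.12% ± 1.21 of counts in 4FM3 and 4.59% ± 0.529 in PBS (SD, n = 5 each). A two-sided exact permutation test of this share gave p = 0.00794, which 5 against 5 cannot go below. In these bulk samples fewer cells of a type and less RNA per cell cannot be told apart, and the part of cell makeup in the results below was not tested.

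ATF4 binds target genes at CARE elements, composite sites that join parts of a C/EBP and an ATF motif, so the promoters of the members were read for such a site. The letters searched were TGATGNAA on both strands, in the 250 bases before and 50 bases after each RefSeq transcript start (build GRCm38.p6). All 10 members had a promoter in the table, in 12 windows. The letters were present in 4 members, Asns, Trib3, Chac1 and Fgf21, in 1 window each, against 3.97% of all 32851 promoter windows and 2.20% of the 12648 windows of tested genes. The members were chosen as genes of this pathway, so a higher share could be foreseen, and the comparison carries no test. They were not found in the windows of Atf4, Atf5, Ddit3, Psat1, Phgdh or Mthfd2. This says nothing of sites outside these windows or of CARE elements with other letters, and a match is not shown to be bound. In the sequences below, read 5′ to 3′ along the gene's own strand, capitals mark the match. Asns and Chac1 are shown as promoters with these letters, and Psat1 and Mthfd2, from the members whose RNA fell, as promoters without them. In the gene annotation GENCODE M21, Psat1 and Mthfd2 reach further upstream than these windows, to 15947337 and 83325908 on their chromosomes. Those outer ends were not searched. A link between the letters and the RNA changes was not tested. The 250 bases before the start are on chr6:7693210-7693459 (minus strand) for Asns, chr2:119350992-119351241 (plus strand) for Chac1, chr19:15925060-15925309 (minus strand, the first of 2 starts) for Psat1 and chr6:83317605-83317854 (minus strand) for Mthfd2. For Trib3 (chr2:152344028-152344057, minus strand) and Fgf21 (chr7:45615611-45615640, minus strand) only the 30 bases around the match are shown. The match began 23 bases before the start in Asns, 193 before it in Chac1, 139 before it in Fgf21 and 14 after it in Trib3. The last 3 read as the reverse complement.
Asns: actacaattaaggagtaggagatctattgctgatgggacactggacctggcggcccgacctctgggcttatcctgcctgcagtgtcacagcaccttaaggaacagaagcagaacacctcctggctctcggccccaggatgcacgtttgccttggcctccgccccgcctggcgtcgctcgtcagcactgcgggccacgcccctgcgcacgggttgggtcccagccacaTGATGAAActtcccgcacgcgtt
Chac1: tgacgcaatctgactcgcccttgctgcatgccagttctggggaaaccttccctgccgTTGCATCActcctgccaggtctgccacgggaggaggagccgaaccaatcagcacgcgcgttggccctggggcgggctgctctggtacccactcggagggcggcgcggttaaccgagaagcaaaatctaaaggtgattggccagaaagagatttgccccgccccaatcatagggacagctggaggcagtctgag
Trib3: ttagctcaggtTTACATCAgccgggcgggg
Fgf21: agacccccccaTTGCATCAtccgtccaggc
Psat1: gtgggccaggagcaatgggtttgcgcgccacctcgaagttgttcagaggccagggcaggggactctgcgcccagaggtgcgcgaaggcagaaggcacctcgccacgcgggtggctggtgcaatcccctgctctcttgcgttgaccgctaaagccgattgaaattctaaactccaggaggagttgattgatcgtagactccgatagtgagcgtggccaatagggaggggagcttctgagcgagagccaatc
Mthfd2: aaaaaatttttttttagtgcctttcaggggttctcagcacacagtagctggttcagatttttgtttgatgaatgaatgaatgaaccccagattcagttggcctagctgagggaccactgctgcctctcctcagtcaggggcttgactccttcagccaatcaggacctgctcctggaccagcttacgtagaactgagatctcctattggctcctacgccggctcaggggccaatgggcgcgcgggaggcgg

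Of the 9 tested members, 3 fell in 4FM3 and none rose: Ddit3, Psat1 and Mthfd2. The edgeR quasi-likelihood test, with Benjamini-Hochberg adjustment over all genes and a threshold of 0.05, called 43.0% of all tested genes, 22.1% lower and 20.9% higher. The members' share called, 33.3%, was thus below the 43.0% of all genes, and 3 of 9 lower differs from 22.1% by 1 gene. At an unadjusted p under 0.05, 4 members fell (Phgdh is the fourth) and 0 rose. The share of all genes at that level was not computed, so this count has nothing to be set against. By DESeq2 2 members fell and 0 rose, and the same numbers held by limma-voom. Of all tested genes 21.8% rose by DESeq2 and 20.6% by limma-voom. The share of all genes that fell was 21.4% by DESeq2, 21.3% by limma-voom, 38.5% with library size alone, 12.6% with no filter on low counts and 22.1% with the replicate number as a block. It was 17% to 22.9% with 1 library left out, 12.8% without PBS libraries 2 and 3, and 17.5% without these and 4FM3 libraries 2 and 5. Those 4FM3 libraries had the highest fibroblast marker sums of their group and between them the highest 4FM3 value of all 9 tested members, so leaving them out lowers the 4FM3 means by construction. The median log2 fold change, 4FM3 over PBS, was -0.31 over the 9 members and -0.03 over all tested genes. Only for Ddit3 did the 5 libraries of each group lie wholly apart, with 4FM3 lower, as they did for 13.4% of tested genes, while 14.1% lay apart with 4FM3 higher and 27.5% in either direction.

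**Figure D1:**
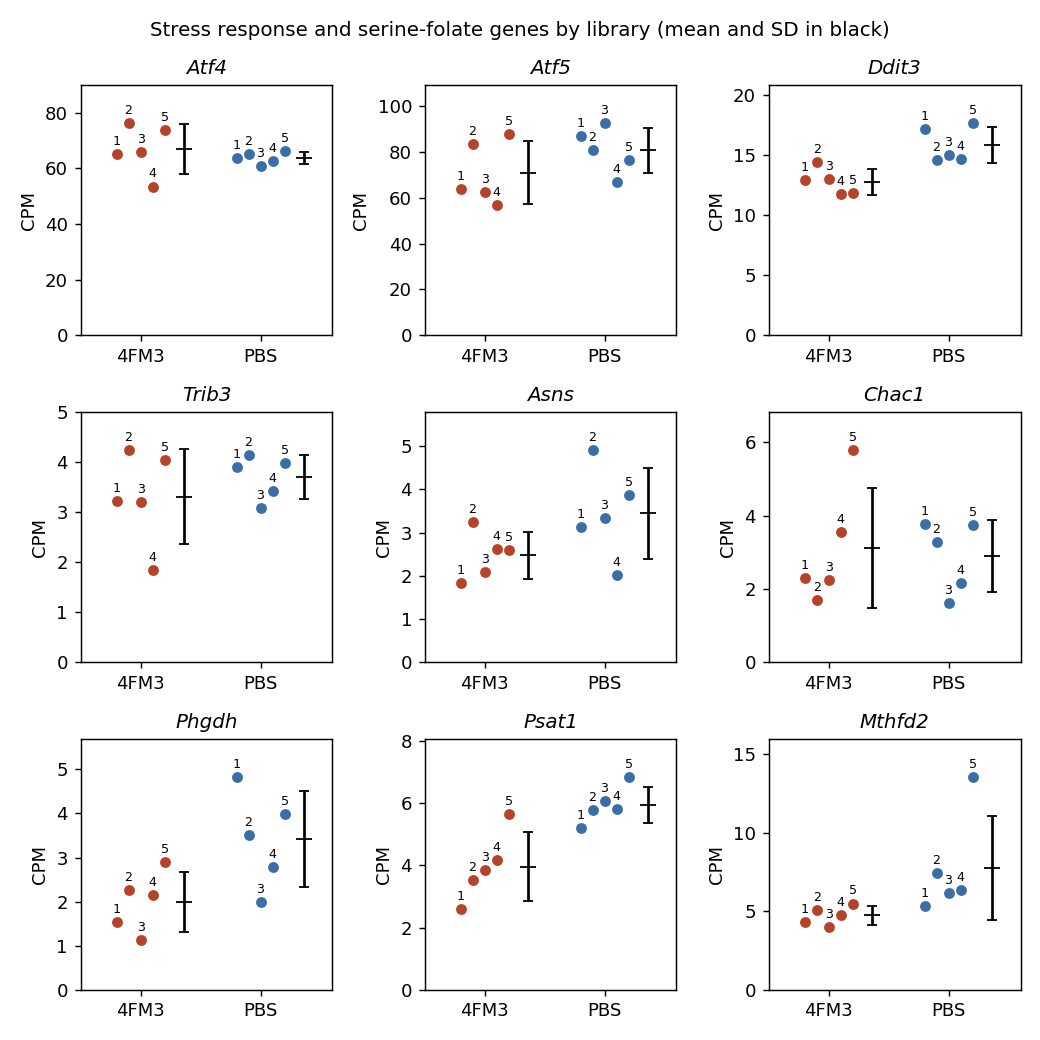
CPM of the 9 tested members in each library (numbers are replicates), 4FM3 left and PBS right, with the group mean and SD in black and each vertical axis from 0. The 4FM3 points of Ddit3 all lie below the PBS points, those of Psat1 and Mthfd2 do so in 4 of 5 libraries, and those of Atf4 span the PBS points.

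Among the transcription factors, Atf4 (chromosome 15, 80255184 to 80257541) was measured at 65.0, 76.3, 65.8, 53.5 and 73.9 CPM in 4FM3 libraries 1 to 5, against 63.9, 65.1, 60.9, 62.7 and 66.3 CPM in PBS libraries 1 to 5. The PBS libraries lay inside the range of the 4FM3 libraries, which spread wider, with a coefficient of variation of 13.4% in 4FM3 and 3.31% in PBS. Its mean was 66.9 ± 8.95 CPM in 4FM3 and 63.8 ± 2.11 CPM in PBS (SD, n = 5 each) and was not called (log2 fold change 0.07, SE 0.0859, adjusted p = 0.537). With library size alone as scaling, which put the median of all genes at -0.20, the sign turned to -0.10, and it was -0.068 without PBS libraries 2 and 3 and 4FM3 libraries 2 and 5.

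Atf5, a related factor that is itself controlled by translation and is tied to the mitochondrial unfolded protein response, lies on chromosome 7 (44812256 to 44816658). It had 63.8, 83.5, 62.6, 56.7 and 87.9 CPM in the 4FM3 libraries, against 86.8, 80.9, 92.5, 67.0 and 76.4 CPM in the PBS libraries. Libraries 1, 3 and 4 of 4FM3 lay below every PBS library, while 2 and 5 lay within their range. The log2 fold change was -0.19 (SE 0.127, adjusted p = 0.257), and without PBS libraries 2 and 3 and 4FM3 libraries 2 and 5 it was -0.33 and passed (adjusted p = 0.0325), a setting that drops the 2 highest 4FM3 values. Exons of Nup62 and Il4i1 overlap Atf5 on the other strand, and both stayed between 0.130 and 1.51 CPM in all libraries. How reads in the overlap were assigned is not stated, so these levels do not show whether the Atf5 counts were affected.

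Ddit3 encodes CHOP, the factor that the pathway induces under lasting stress and that promotes cell death (chromosome 10, 127290774 to 127296288). It had 12.9, 14.4, 12.98, 11.7 and 11.9 CPM in the 4FM3 libraries, against 17.2, 14.6, 14.98, 14.7 and 17.6 CPM in the PBS libraries. Every 4FM3 library was lower than every PBS library, but 4FM3 library 2 and PBS library 2 were almost level. Ddit3 averaged 12.8 ± 1.08 CPM in 4FM3 and 15.8 ± 1.48 CPM in PBS (SD, n = 5 each) and fell 1.24-fold (log2 fold change -0.31, SE 0.0990, adjusted p = 0.0244). The call was lost with DESeq2 (-0.29, adjusted p = 0.0522), with no filter on low counts (-0.30, adjusted p = 0.0504), and without PBS replicate 1 (-0.28), PBS replicate 5 (-0.26) or 4FM3 replicate 4 (-0.28). Exons of Mars, the cytosolic methionyl-tRNA synthetase gene, overlap Ddit3 on the other strand. Mars averaged 52.6 ± 2.17 CPM in 4FM3 and 47.8 ± 5.37 CPM in PBS (SD, n = 5 each; log2 fold change 0.14, adjusted p = 0.162), and whether counting used the strand is not stated.

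The ATF4 and CHOP targets Trib3, Asns and Chac1 averaged 2.48 to 3.71 CPM in either group and none passed. Trib3, a pseudokinase that dampens the response, had 3.22, 4.24, 3.20, 1.85 and 4.05 CPM in the 4FM3 libraries, against 3.91, 4.15, 3.10, 3.42 and 3.99 CPM in the PBS libraries. The groups overlapped over most of their range, and only 4FM3 library 4 stood below all PBS libraries (log2 fold change -0.16, SE 0.220, adjusted p = 0.585).

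Asns, the enzyme that makes asparagine, had 1.84, 3.25, 2.08, 2.62 and 2.60 CPM in the 4FM3 libraries, against 3.12, 4.90, 3.34, 2.03 and 3.86 CPM in the PBS libraries. All 5 4FM3 libraries lay below the PBS median, yet PBS library 4 was among the lowest of all. The log2 fold change was -0.47 with an SE of 0.254 (adjusted p = 0.150), and it stayed negative and was not called in any of 17 alternatives, from -0.65 to -0.26. With 12 to 23 counts in 4FM3 and 16 to 39 in PBS, counting error alone gives a coefficient of variation of 24.5% in 4FM3 and 19.2% in PBS, against 22.04% seen in 4FM3 and 30.5% seen in PBS.

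Chac1, which degrades glutathione, had 2.30, 1.70, 2.24, 3.55 and 5.78 CPM in the 4FM3 libraries, against 3.78, 3.27, 1.61, 2.15 and 3.74 CPM in the PBS libraries. The highest library of all was of 4FM3 and the lowest of PBS, with the rest mixed. Spread was widest in 4FM3, where the coefficient of variation was 52.6%, against 33.6% in PBS. The log2 fold change of 0.10 (SE 0.347, adjusted p = 0.830) had no stable sign: it was -0.25 without 4FM3 replicate 5, -0.033 without PBS replicate 3 and -0.075 with library size alone. Fgf21, a hormone that mitochondrial stress induces in muscle, had 1 count in 3 of the 5 4FM3 libraries, 1 count in 2 of the 5 PBS libraries and 0 in the others. At this depth it was not measurable in either group.

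With all libraries the serine-folate enzymes were the members with the largest fitted decreases. Their 4FM3 libraries lay below the PBS median in 5 of 5 cases for each, as did those of Ddit3 and Asns. The share of all tested genes for which this holds was not computed, so it cannot be read as particular to these members. The fitted value of Asns was below that of Psat1 without PBS replicate 4 or 4FM3 replicate 2, and below Mthfd2 without PBS replicate 5. Phgdh catalyses the first step of serine synthesis from 3-phosphoglycerate (chromosome 3, 98313170 to 98339990). It had 1.53, 2.26, 1.12, 2.16 and 2.89 CPM in the 4FM3 libraries, against 4.82, 3.52, 1.98, 2.79 and 3.99 CPM in the PBS libraries. All 4FM3 libraries lay below PBS libraries 1, 2 and 5, but the groups overlapped through PBS libraries 3 and 4, the lowest of their group. Phgdh averaged 1.99 ± 0.685 CPM in 4FM3 and 3.42 ± 1.09 CPM in PBS (SD, n = 5 each), a log2 fold change of -0.76 (SE 0.295) that narrowly missed the threshold (adjusted p = 0.0524). Among other settings, it passed with library size alone (-0.94), without PBS replicate 3 (-0.89), without 4FM3 replicate 5 (-0.93) and without PBS libraries 2 and 3 and 4FM3 libraries 2 and 5 (-1.26). The last 3 of these leave out the lowest PBS value, the highest 4FM3 value or both, which widens the gap by construction. Counts ran from 7 to 20 in 4FM3 and from 16 to 37 in PBS, and counting error alone gives a coefficient of variation of 27.3% in 4FM3 and 19.3% in PBS, against 34.4% and 31.9% seen in 4FM3 and PBS. GENCODE M21 lists 13 processed pseudogenes with a stretch of at least 200 bases at 95% identity or more to Phgdh, so reads could have been lost or split in a way not stated. Those of them with a row in the table had 0 counts.

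Psat1 catalyses the next step, the transfer of an amino group (chromosome 19, 15904678 to 15947337). It had 2.61, 3.53, 3.85, 4.16 and 5.64 CPM in the 4FM3 libraries, against 5.21, 5.78, 6.07, 5.82 and 6.83 CPM in the PBS libraries. Apart from 4FM3 library 5, which reached above PBS library 1, each 4FM3 library was below every PBS library. The mean was 3.96 ± 1.10 CPM in 4FM3 and 5.94 ± 0.587 CPM in PBS (SD, n = 5 each), so that Psat1 fell 1.50-fold (log2 fold change -0.58, SE 0.194, adjusted p = 0.0282). The call was lost without 4FM3 replicates 1 (-0.46), 2 (-0.54) or 3 (-0.57), without PBS replicates 2 (-0.58), 3 (-0.56) or 5 (-0.52), and without PBS libraries 2 and 3 together (-0.57, adjusted p = 0.0977), while the direction and size changed little.

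Mthfd2 is the mitochondrial folate enzyme that is abundant in embryos and dividing cells and low in most adult tissue (chromosome 6, 83305691 to 83325908). It had 4.29, 5.09, 4.01, 4.78 and 5.49 CPM in the 4FM3 libraries, against 5.34, 7.42, 6.19, 6.33 and 13.5 CPM in the PBS libraries. PBS library 5 stood far above the rest, and 4 of 5 4FM3 libraries were below every PBS library. Mthfd2 averaged 4.73 ± 0.597 CPM in 4FM3 and 7.76 ± 3.31 CPM in PBS (SD, n = 5 each) and fell 1.63-fold (log2 fold change -0.71, SE 0.244, adjusted p = 0.0326). Without PBS replicate 5 the log2 fold change was -0.40 and did not pass (adjusted p = 0.0716). The call was also lost without PBS replicate 2 (-0.71), without 4FM3 replicates 1 (-0.67), 3 (-0.65) or 4 (-0.71), with limma-voom (-0.62), and without PBS libraries 2 and 3 (-0.81) or those with 4FM3 libraries 2 and 5 (-0.94).

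**Figure D2:**
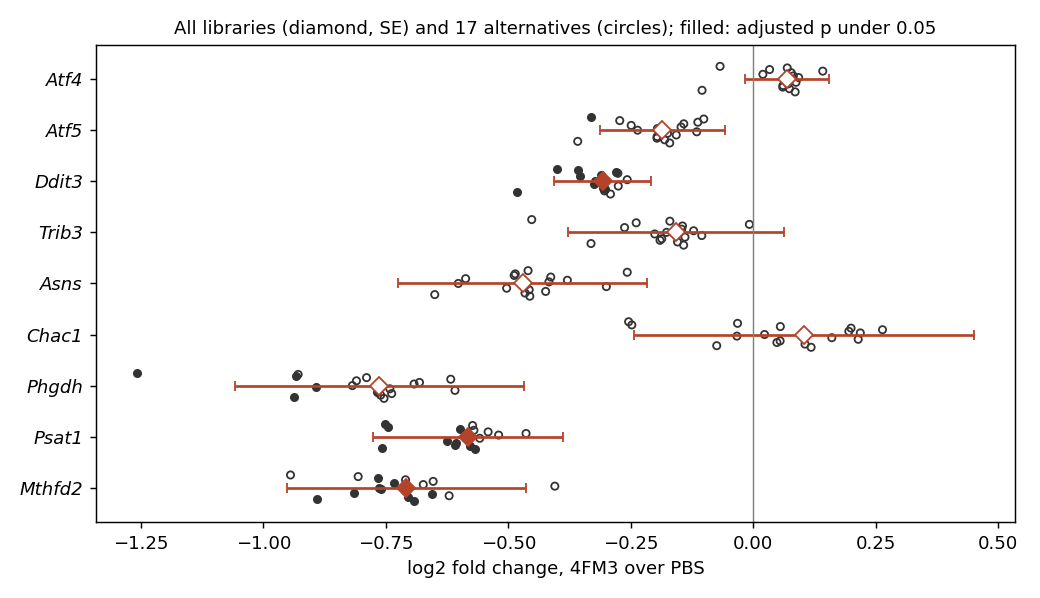
Log2 fold change, 4FM3 over PBS, of each tested member with all libraries (diamond with SE) and under 17 alternatives (circles), filled where the adjusted p is under 0.05. Ddit3, Psat1 and Mthfd2 stay below 0 throughout with a mix of filled and open circles, and Atf4 and Chac1 have circles on both sides of 0.

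Within each group the members ranked the libraries unevenly. In 4FM3 the highest value of a member came from library 5 for 5 of the 9 tested members and from library 2 for the other 4. Those 2 libraries also had the highest fibroblast marker sums of their group, 6475 CPM in library 2 and 6814 CPM in library 5, against 3924 to 4546 CPM in the other 3 4FM3 libraries. In PBS, library 5 held the highest value for 4 members and the lowest for none. It had the lowest cardiomyocyte marker sum of its group (64793 CPM), but PBS library 2 was close to it (65303 CPM). PBS library 2 held the highest value for 2 members and the lowest for 1. By fibroblast marker sum PBS library 5 (11146.5 CPM) was below PBS library 2 (12181.5 CPM). The part of these differences in the members' results was not tested.

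Per kilobase of exon in GENCODE M21, the factor genes were far above the enzymes in level. In 4FM3 the order was Atf5 (35.6 CPM per kb), Atf4 (28.4), Ddit3 (7.45), Chac1 (1.90), Trib3 (1.56), Mthfd2 (1.36), Psat1 (0.930), Asns (0.907) and Phgdh (0.802). In PBS it was Atf5 (40.5 CPM per kb), Atf4 (27.1), Ddit3 (9.23), Mthfd2 (2.23), Chac1 (1.78), Trib3 (1.75), Psat1 (1.40), Phgdh (1.38) and Asns (1.26). Neighbours whose ranges over libraries did not overlap were Atf4 and Ddit3, and Ddit3 and the next gene, in both groups, and Atf5 and Atf4 in PBS, while all later neighbours overlapped.

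A ratio of counts to Atf4 within a library does not depend on the scaling between libraries. Psat1 stood at 40.1, 46.3, 58.4, 77.8 and 76.3 counts per 1000 Atf4 counts in the 4FM3 libraries, against 81.5, 88.8, 99.6, 92.9 and 102.9 in the PBS libraries. Ddit3 stood at 198, 189, 197, 219 and 160 per 1000 in 4FM3, against 269, 224, 246, 234 and 266 in PBS. For both genes every 4FM3 library was below every PBS library. These were 2 of the 8 members set against Atf4, and 13.1% of all tested genes had a ratio to Atf4 that was lower in 4FM3 with no overlap, and 3.90% one that was higher. Phgdh ran from 17.03 to 40.3 per 1000 in 4FM3 and from 32.5 to 75.4 in PBS, and Mthfd2 averaged 71.4 ± 11.1 in 4FM3 and 120.8 ± 47.7 in PBS (SD, n = 5 each), with overlap in both.

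**Figure D3:**
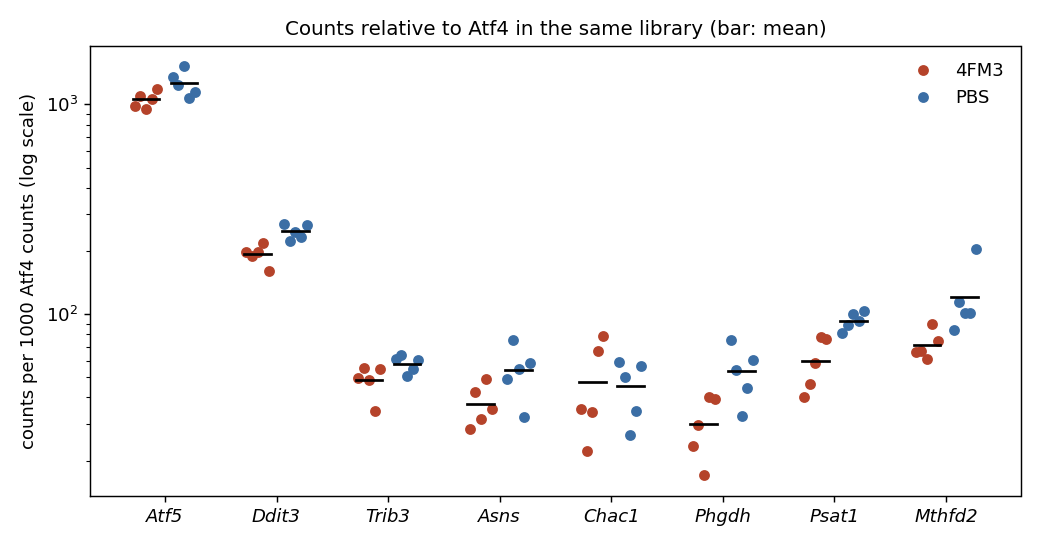
Counts of each member per 1000 Atf4 counts of the same library, on a log axis, with 4FM3 left of PBS and a bar at each mean. The 4FM3 and PBS points do not overlap for Ddit3 and Psat1 and overlap for the other 6.

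Upstream of ATF4, the eIF2 machinery had a share of called genes near that of all tested genes (43.0%). Of 18 tested genes for eIF2 kinases, eIF2 and eIF2B subunits, the phosphatase and their regulators, 6 rose, 2 fell and 10 did not pass, and their median log2 fold change was 0.20. Of the kinases, Eif2ak3 (PERK, which senses stress of the endoplasmic reticulum) had 27.6, 30.2, 29.5, 29.8 and 29.9 CPM in the 4FM3 libraries, against 37.8, 39.2, 38.8, 35.7 and 41.4 CPM in the PBS libraries. With no overlap it fell 1.31-fold (log2 fold change -0.39, SE 0.0649, adjusted p = 0.000689). Eif2ak1 (HRI, activated by heme deficiency and by mitochondrial stress) stood at 0.07 (SE 0.0678, adjusted p = 0.416), and at -0.10 with library size alone. Eif2ak2 (PKR, which senses double-stranded RNA) stood at -0.23 (SE 0.121, adjusted p = 0.148) and Eif2ak4 (GCN2, which senses uncharged tRNA) at -0.20 (SE 0.0953, adjusted p = 0.101). Both passed with library size alone (-0.41 and -0.38), and Eif2ak4 also without 4FM3 replicate 5 (-0.26). Oma1, the mitochondrial protease that cuts the HRI activator DELE1, rose 1.49-fold (adjusted p = 0.00135). Eif2b4 and Eif2b5, subunits of the exchange factor eIF2B that phosphorylated eIF2 inhibits, rose 1.49-fold (adjusted p = 0.000588) and 1.25-fold (adjusted p = 0.00440). With library size alone 11.9% of all tested genes rose and 38.5% fell. In that setting 2 genes of this list rose and 6 fell, and Eif2b5 did not pass (0.15). Only 1 gene fell with no filter on low counts, or without PBS replicates 3 or 5 or 4FM3 replicate 4. The same held without PBS libraries 2 and 3, or these and 4FM3 libraries 2 and 5. In those settings 12.6% to 18.7% of all tested genes fell.

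Other known ATF4 targets were read from a list of genes described as such in mammalian cells. Of 25 tested, 5 fell, 2 rose and 18 did not pass, a share called below the 43.0% of all tested genes. Their median log2 fold change was -0.27. Slc1a5, a glutamine transporter, had 24.8, 42.1, 30.4, 30.995 and 54.2 CPM in the 4FM3 libraries, against 82.2, 94.2, 85.3, 102.6 and 129.6 CPM in the PBS libraries. Every 4FM3 library was far below every PBS library, and Slc1a5 fell 2.70-fold (log2 fold change -1.43, SE 0.204, adjusted p = 0.000515). Pck2, which makes phosphoenolpyruvate in mitochondria, fell 1.51-fold (adjusted p = 0.00135). Vldlr, a lipoprotein receptor, and Gpt2, the mitochondrial alanine transaminase, rose 1.63-fold and 1.69-fold (adjusted p = 0.000320 and 0.000784). With library size alone 11 of the 25 fell and 2 rose, against 38.5% and 11.9% of all tested genes. The number that fell was 10 without 4FM3 replicate 5 and 3 without PBS libraries 2 and 3, where 22.9% and 12.8% of all tested genes fell. The number that rose was 4 without 4FM3 replicate 3, where 17.7% of all tested genes rose.

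Among the other serine, glycine and folate genes, 3 of 20 tested fell, 3 rose and 14 did not pass. This share called was below the 43.0% of all tested genes, and their median log2 fold change was -0.02. Mthfd1l, the mitochondrial enzyme that releases formate and acts after MTHFD2 in the same pathway, had 2.76, 3.39, 2.40, 3.55 and 4.19 CPM in the 4FM3 libraries, against 9.76, 10.1, 10.8, 17.7 and 18.3 CPM in the PBS libraries. It averaged 3.26 ± 0.698 CPM in 4FM3 and 13.3 ± 4.30 CPM in PBS (SD, n = 5 each) and fell 4.06-fold (log2 fold change -2.02, SE 0.234, adjusted p = 0.000237). It kept its call in all 17 alternatives, with log2 fold changes from -2.39 to -1.87. Sfxn1, the mitochondrial serine carrier, and Sardh, which oxidises sarcosine, fell 1.34-fold (adjusted p = 0.00840) and 1.38-fold (adjusted p = 0.00352). Dld, a subunit shared by the glycine cleavage system and the pyruvate and oxoglutarate dehydrogenases, rose 1.76-fold (adjusted p = 0.000271). With library size alone 8 of the 20 fell and 1 rose, against 38.5% and 11.9% of all tested genes.

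Of 21 tested genes of folding in the endoplasmic reticulum and its unfolded protein response, which shares PERK with the integrated stress response, 3 rose, 1 fell and 17 did not pass. The median log2 fold change was -0.02, and the share called was below the 43.0% of all tested genes. Hspa5, the chaperone BiP, had 587, 550, 557, 530 and 545 CPM in the 4FM3 libraries, against 389, 389, 385, 362 and 407 CPM in the PBS libraries. The groups were far apart relative to their spread, and Hspa5 rose 1.43-fold (log2 fold change 0.52, SE 0.0625, adjusted p = 0.000261). Atf6, a stress sensor, and Canx, a lectin chaperone, rose 1.33-fold and 1.22-fold (adjusted p = 0.000297 and 0.00565), and Edem1, of degradation from the reticulum, fell 1.37-fold (adjusted p = 0.00546). Canx did not pass with library size alone (0.11), and Edem1 did not pass without PBS libraries 2 and 3 (-0.37). With library size alone 38.5% of all tested genes fell and 11.9% rose, and 8 genes of the list fell and 2 rose. Without 4FM3 replicate 5, and without both PBS libraries 2 and 3 and 4FM3 libraries 2 and 5, 2 genes fell. In these settings 22.9% and 17.5% of all tested genes fell.

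**Figure D4:**
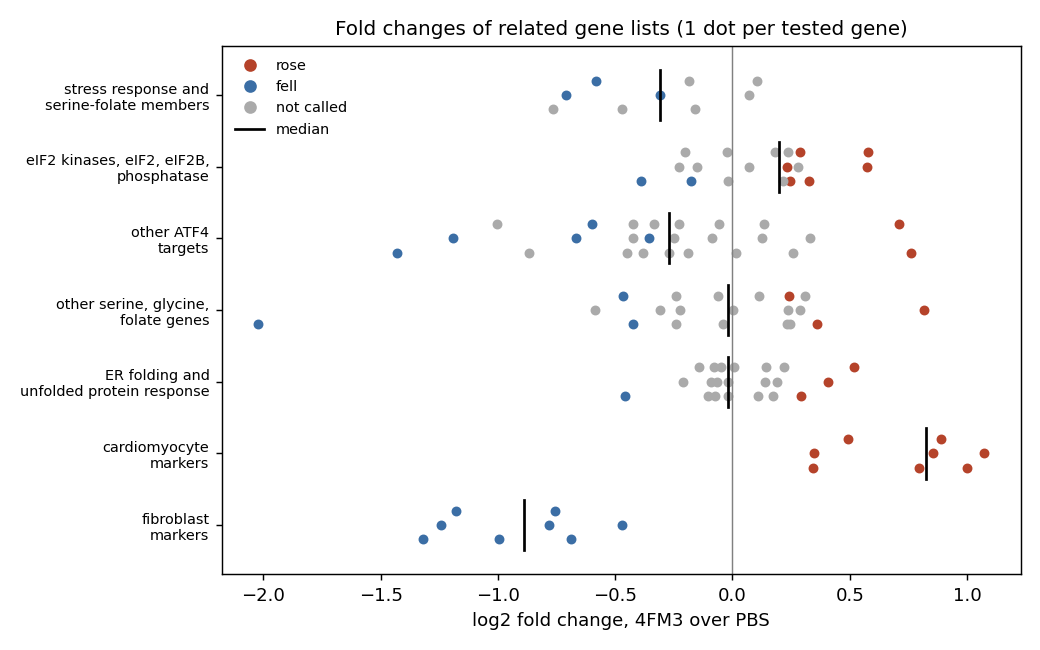
Log2 fold change, 4FM3 over PBS, of each tested gene of the 9 members, the 4 related lists and the cardiomyocyte and fibroblast markers, coloured by whether the gene rose, fell or was not called, with the list median as a black line. The members have a median of -0.31 and the ATF4 targets one of -0.27, while all 8 cardiomyocyte markers lie above 0 and all 8 fibroblast markers below it.

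The genes whose standardised log2 CPM over the 10 libraries lay nearest to Atf4 were Ddx54, Hmgn2 and Tnfrsf12a, at Euclidean distances of 1.38, 1.48 and 1.49, against a median of 4.26 over all tested genes. None of the 3 was called. Of the other members, Trib3 was nearest to Atf4 (1.70) and Psat1 farthest (4.40). Nearest to Phgdh were Plekha7, Amotl2 and Clcn6, at 0.986, 1.11 and 1.13, against a median of 4.09, and all 3 fell. Clcn6 lost its call without PBS replicates 1 (-0.30) or 2 (-0.28), without 4FM3 replicates 1 (-0.28), 3 (-0.27) or 4 (-0.32) and without PBS libraries 2 and 3 (-0.34). The nearest member to Phgdh was Psat1 (2.46). These distances describe shared rises and falls over libraries that also share depth and group, and carry no test. The group difference is part of what was compared, so the calls of the nearest genes follow largely from how they were picked.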

How the data were processed

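Per the labels' protocols, rRNA-depleted RNA of the left ventricle went into directional libraries. The build mm10 comes from the submitters' processing notes. For the aligner, counting tool, annotation and strand setting, the methods were not given in the sources used here. The deposited count columns held whole-number reads per gene and library. The second deposited set was a signal, the count times 1 factor per library chosen by the authors (0.9311 to 1.1143), and the third deposited set was log2 of that value plus 1. Only counts entered the tests. In 26 rows a calendar date replaced the symbol, and these were kept and not named.

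Counts were tested with edgeR 4.0.16 in R 4.3.3 (filterByExpr by group, TMM, robust quasi-likelihood, two-sided, no covariate), 4FM3 over PBS, with Benjamini-Hochberg adjustment over the 12906 genes tested. Alternatives were DESeq2 1.42.0 and limma-voom (limma 3.58.1), library size alone, no filter, a replicate block and libraries left out. The code of the fit was checked on simulated counts with the same dispersion for all genes and few changed genes. That setting differs from the data, so the check says nothing of the members' calls. Members and lists were chosen with earlier results of these data known. Named beyond the 10 members are the 4 genes with the smallest p of each related list, the 4 eIF2 kinases and the 3 genes nearest to Atf4 and to Phgdh, except predicted genes and pseudogenes. Genes overlapping a member were named for their position. The symbols Dele1 and Gcn1 had no row, and Gcn1 was read under its older symbol Gcn1l1. Exon lengths and positions are from GENCODE M21 and promoters from RefSeq, both on the same build as the counts.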

Additional observations from a re-analysis of the deposited data

Results flagged for a closer look

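Of 18 sets of 5 libraries (9 tested members in 2 groups), 1 had a library far from the others by Dixon's criterion, which flags about 1 set in 20 by chance. Mthfd2 reached 13.5 CPM in PBS library 5, against 5.34 to 7.42 CPM in the other 4 PBS libraries, a gap of 0.746 of the range of the group where 0.71 is the critical value. The 4FM3 libraries had 4.01 to 5.49 CPM.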

How the results depend on the processing

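The number of members that fell, 3 with all libraries, ran from 0 to 4 when 1 library was left out, and was 1 without PBS libraries 2 and 3. None rose in any of the 17 alternatives. Over all genes 2700 rose and 2846 fell, from 2317 to 2840 and from 2206 to 2991 when 1 library was left out. With library size alone 1540 rose and 4967 fell, and without PBS libraries 2 and 3 1668 fell. The signs of Asns, Atf5, Trib3, Ddit3, Psat1, Phgdh and Mthfd2 were negative in all 17 alternatives, which share most of their libraries. The median of all tested genes was below 0 in each as well. Trib3 was near 0 without 4FM3 replicate 4 (-0.0079, SE 0.189). Atf4 turned to -0.10 with library size alone and to -0.068 without PBS libraries 2 and 3 and 4FM3 libraries 2 and 5. In the same 2 settings Chac1 turned to -0.075 and -0.25, Ddx54 to -0.10 and -0.028 and Hmgn2 to -0.082 and -0.076, and Tnfrsf12a turned to -0.0098 in the second and passed without 4FM3 replicate 4 (0.46). Chac1 also turned without PBS libraries 2 and 3 (-0.032), and ran from -0.25 to 0.26 with 1 library left out, below 0 without PBS replicate 3 (-0.033) or 4FM3 replicate 5, and Eif2ak1 with library size alone (-0.10). The mitochondrial share differed by 2.53 percentage points, from 2.14 to 2.90 with 1 library left out, and by 3.31 without PBS libraries 2 and 3 and 4FM3 libraries 2 and 5, where the exact permutation test cannot go below 0.1. The lung marker sum, 4FM3 minus PBS, was -378 CPM (two-sided exact permutation p = 0.175), from -473 to -231 with 1 library left out, and was 1.51 without PBS libraries 2 and 3 and -2.63 without these and 4FM3 libraries 2 and 5 (p = 0.1 by the same test, the lowest that 3 against 3 allows). The cause of these changes was not tested.

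The labels give both groups replicate numbers 1 to 5, but same-numbered libraries did not deviate together (correlations over genes of -0.0448 to 0.0595). Of the 5 PBS libraries, 1 correlated best with its own number. The numbers were therefore not taken as pairs, though 5 libraries per group are too few to show that they are not. With the replicate number as a block 2740 genes rose and 2852 fell, and 4 members fell, Phgdh among them (log2 fold change -0.77, adjusted p = 0.0364 by edgeR). In the list of the endoplasmic reticulum 5 genes rose under the block, against 3 without it. Of all tested genes 21.2% rose under the block. Members other than Atf4, Atf5 and Ddit3 had at most 105 counts in a library, which limits their precision.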
